A study of Mus musculus with 12 samples.

Results

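The genes described here encode 10 histone lysine demethylases other than the KDM5 family: Kdm1a, Kdm1b, Kdm2a, Kdm2b, Kdm3a, Kdm3b, Kdm4a, Kdm4b, Kdm4c and Kdm6b. They were taken by symbol from the 2 deposited expression tables, which hold 22911 genes each, and all 10 were present in both. RNA-Seq was performed on mouse epiblast-like cells (EpiLCs), an in vitro counterpart of the early post-implantation epiblast, after 48 h of differentiation of embryonic stem cells (ESCs) with FGF2 and Activin A. The 4 groups, with 3 libraries each, were wild-type females, called fWT, females without functional Kdm5c (fKO), and the same pair of genotypes in males (mWT and mKO). The labels give the genotypes as Smcx wild type and Smcx knockout, Smcx being an older symbol of Kdm5c, and the strain as C57BL/6J. According to the study's methods the controls carry the floxed allele (Kdm5c fl/fl in females, fl over Y in males), the knock-outs carry the Cre-deleted allele that lacks the exons of the JmjC catalytic domain, the floxed strain was made on a mixed background, and each library came from an independent ESC line. The lines were derived on mouse embryonic fibroblasts and were passaged on gelatin before differentiation. The question put to the data was how the other demethylase genes were expressed in EpiLCs of either sex with and without Kdm5c.

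A histone lysine demethylase removes methyl groups from lysines of histone tails, and the families differ in the residue they act on. KDM1A and KDM1B are flavin-dependent amine oxidases that act on mono- and dimethylated H3K4, KDM1A within CoREST and NuRD complexes. The other members are JmjC oxygenases that need iron, oxygen and α-ketoglutarate. KDM2A and KDM2B act on H3K36 and bind unmethylated CpG islands, KDM2B as part of a variant Polycomb repressive complex 1. KDM3A and KDM3B act on mono- and dimethylated H3K9, KDM4A, KDM4B and KDM4C on trimethylated H3K9 and H3K36, and KDM6B on H3K27. KDM5C itself acts on di- and trimethylated H3K4.

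The values are normalized read counts, in which the reads of a gene are corrected by a size factor for the depth of the library. The deposited tables hold the mean of each group, and the reads of the single libraries, called A, B and C within a group by falling size factor, were solved from those means. Between 5516216 and 11092731 reads were recovered per library, and a member had between 215 and 3157 reads in a library, so that counting error alone was between 6.82% and 1.78% of a value. Libraries mWT B and mKO A stood apart from the others of their group. The chi-square per gene between replicates was 16.7 or more in each pair with mWT B and 26.8 or more in each pair with mKO A, against 1.97 to 4.42 in all other pairs. The median SD of a gene on the log2 scale was 0.114 in female and 0.233 in male libraries. Each male change of a member is therefore also given without mWT B and mKO A, a choice made after seeing the data. It keeps the pairs most alike, with a chi-square per gene of 2.31 for mWT A and C and 2.61 for mKO B and C. The choice itself thus reduces the spread that the p-values of these fits weigh a change against.

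The targeted gene was measured first. Kdm5c, on chromosome X, had 2336, 2429 and 2315 normalized counts in the fWT libraries and 1406, 1447 and 1505 in the fKO libraries, a log2 change of -0.70 (SE 0.054, adjusted p = 4.7e-09). In males it had 2195, 2110.1 and 2371 in mWT and 1897, 1943 and 1976 in mKO, a log2 change of -0.20 (SE 0.11, adjusted p = 0.274), or of -0.22 without mWT B and mKO A (adjusted p = 0.0211). No knock-out library overlapped a control library in either sex. The tables count whole genes, so reads of the deleted exons were not separated from those of the exons that stay.

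In females, 8 of the 10 members passed the test, 7 lower and 1 higher in fKO than in fWT. The largest falls were those of Kdm4b, Kdm3a, Kdm2b and Kdm4c. The test was limma on log2(normalized count + 1) with Benjamini-Hochberg adjustment over all 19583 genes with a read in female libraries, at an adjusted p of 0.05. Of all these genes 50.0% passed, 25.4% higher and 24.6% lower. All members are well-expressed genes, and among the 9712 genes averaging 100 or more normalized counts, a limit set after seeing the data, 68.1% passed, 36.3% higher and 31.8% lower. The median log2 change was -0.33 over the members, 0.00 over all genes and 0.03 over genes averaging 100 or more. The libraries of the 2 groups did not overlap for 7 members, against 54.8% of all genes. This share was not taken among genes averaging 100 or more. The exact permutation test of a single member cannot give less than p = 0.10 with 3 libraries against 3.

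**Figure D1:**
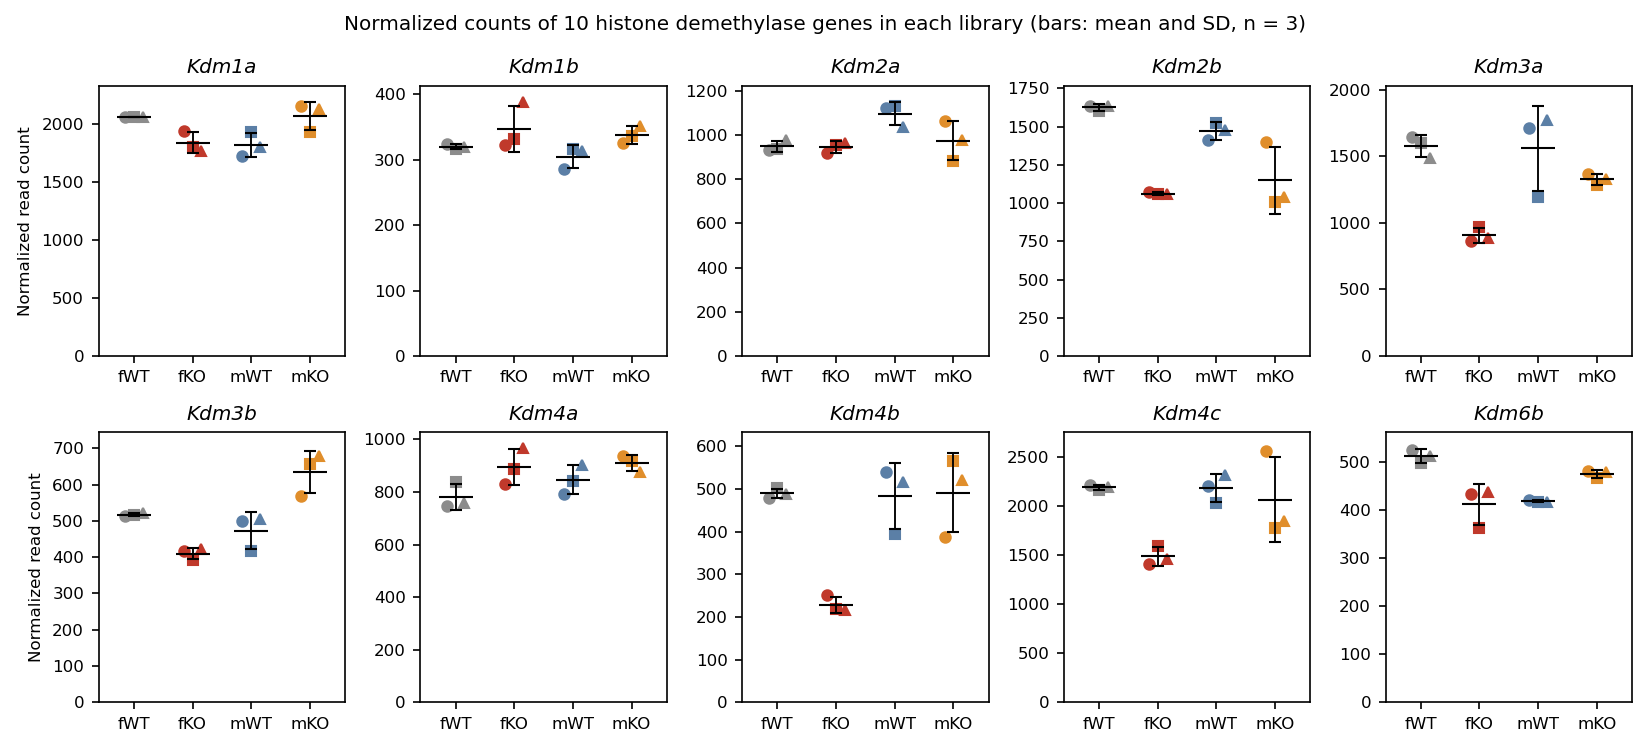
Normalized read counts (vertical axes, from 0) of the 10 members in each of the 12 libraries, by group. Circles, squares and triangles are libraries A, B and C, and the bars give the mean and SD of 3 libraries. The fKO points of Kdm2b, Kdm3a, Kdm4b and Kdm4c lie below all other groups except mKO B and mKO C of Kdm2b, and mKO A and mWT B lie away from their groups in several panels.

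Among the amine oxidases, Kdm1a had 2055, 2052 and 2053 normalized counts in fWT and 1937, 1801 and 1765 in fKO. The groups did not overlap, and the mean fell by 10.7% (log2 change -0.16, SE 0.054, adjusted p = 0.0177). The call was lost without fWT A (-0.16, adjusted p = 0.0521), without fKO B (-0.15, adjusted p = 0.0534) and without fKO C (-0.14, adjusted p = 0.0731). Kdm1b, whose product acts on H3K4 in transcribed gene bodies and in oocytes, had 324, 316 and 319 in fWT and 323, 332 and 388 in fKO. Its groups overlapped, and it did not pass the test (log2 change 0.12, 95% interval -0.05 to 0.29, adjusted p = 0.253).

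Of the H3K36 demethylase genes, Kdm2b passed the test and Kdm2a did not. Kdm2b had 1638, 1602 and 1638 normalized counts in fWT and 1070.5, 1059 and 1057 in fKO. All fKO libraries were lower and lay close to each other, and the mean fell by 34.7% (log2 change -0.61, SE 0.053, adjusted p = 2.1e-08). Kdm2a had 934, 937 and 978 in fWT and 917, 954 and 966 in fKO, with overlapping groups. Its log2 change was -0.01, with a 95% interval from -0.13 to 0.11 and an adjusted p of 0.939.

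Both H3K9me1/2 demethylase genes were lower in fKO. Kdm3a, which is known as a hypoxia-inducible gene, had 1645, 1603 and 1486 normalized counts in fWT and 860.5, 972 and 886 in fKO. Every fKO library lay far below the lowest fWT library, and the mean fell by 42.6% (log2 change -0.80, SE 0.062, adjusted p = 5.9e-09). Kdm3b had 512, 517 and 523 in fWT and 416, 391 and 422 in fKO. Its groups did not overlap either, and its mean fell by 20.7% (log2 change -0.34, SE 0.065, adjusted p = 0.000302).

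The 3 KDM4 genes moved in both directions. Kdm4b had 480, 502 and 489 normalized counts in fWT and 251, 219 and 217 in fKO, and its mean fell by 53.3%, more than that of any other member (log2 change -1.10, SE 0.077, adjusted p = 1.5e-09). Kdm4c had 2213, 2168 and 2196 in fWT and 1414, 1595 and 1459 in fKO, and its mean fell by 32.1% (log2 change -0.56, SE 0.057, adjusted p = 1.9e-07). The groups of both genes were fully separated. Kdm4a had 745, 838 and 758 in fWT and 831, 887 and 965 in fKO. It was the 1 member called higher, by 14.6% of the mean (log2 change 0.20, SE 0.068, adjusted p = 0.0226), although its lowest fKO library lay below its highest fWT library. This call was lost when libraries were scaled to their total reads (log2 change 0.13, adjusted p = 0.123). It was also lost without fWT A (0.16, adjusted p = 0.117), fWT C (0.18, adjusted p = 0.0831), fKO B (0.20, adjusted p = 0.0503) or fKO C (0.14, adjusted p = 0.135).

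Kdm6b, the H3K27 demethylase gene among the members, had 525, 497 and 513 normalized counts in fWT and 433, 362 and 438 in fKO. The groups did not overlap, and the mean fell by 19.7% (log2 change -0.32, SE 0.077, adjusted p = 0.00192). The calls of Kdm2b, Kdm3a, Kdm3b, Kdm4b, Kdm4c and Kdm6b were kept without any one female library.

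The cell type given in the labels was checked against marker lists, and several of those lists moved with the genotype. The 5 pluripotency markers summed to 12575 to 13391 normalized counts in fWT and 16149 to 16288 in fKO, with 3 higher and 1 lower. Pou5f1, Sall4, Lin28a, Dnmt3b and Otx2, genes of the pluripotent epiblast, were read in all groups, while Sox2 had a mean of 351 in fWT against 1820.1 in fKO. The summed level of 8 endoderm markers was 513 to 570 normalized counts in fWT and 6531 to 6721 in fKO, and 8 of 8 were called higher. The 8 naive pluripotency markers summed to 965 to 998 in fWT and 3033 to 3193 in fKO, with 7 of 8 higher, and the 6 EpiLC markers to 7825 to 8043 and 14814 to 15466, with 4 higher and 1 lower. The 6 fibroblast markers summed to 2244 to 2297 in fWT and 745 to 806 in fKO, with 3 of 6 lower. Of 4 neural markers 1 was higher and 2 lower, with sums of 2293 to 2520 and 1726 to 1777, and of 5 mesoderm markers 1 was higher and 1 lower, with sums of 275 to 314 and 230 to 256. Among the markers, Mesp1 and Neurog2 were at 0 in all fWT libraries. The part of these markers in the changes of the members was not tested, and in bulk samples fewer cells of a type and less RNA per cell cannot be told apart.

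In males, 0 of the 10 members passed the same test by limma or by limma voom. Of all 21900 genes tested in males 7.78% passed, and of those averaging 100 or more normalized counts 11.8%. The libraries of mWT and mKO did not overlap for 5 members (Kdm1a, Kdm1b, Kdm2b, Kdm3b and Kdm6b), against 26.5% of all genes. Here too the share was not taken among genes averaging 100 or more, so an excess over genes of like level was not tested. Without mWT B and mKO A, 5 members passed, with Kdm2b, Kdm3a and Kdm4c lower and Kdm1a and Kdm3b higher. These passes rest on the spread as reduced by leaving those libraries out. In that fit 43.0% of all genes passed, and 54.8% of those averaging 100 or more. The median log2 change in males was 0.06 over the members and -0.16 over all genes, and 0.02 over genes averaging 100 or more.

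Kdm2b had 1412, 1524 and 1479 normalized counts in mWT and 1400.0, 1006 and 1037 in mKO, a log2 change of -0.37 (SE 0.14, adjusted p = 0.143). Libraries B and C of mKO were near the fKO level and mKO A was near the mWT level. Without the libraries that stand apart the log2 change was -0.50 (SE 0.057, adjusted p = 0.000898), and without mKO A alone it was -0.52 (adjusted p = 0.00497). Kdm2a had 1125, 1132 and 1036 in mWT and 1065, 885 and 976 in mKO, with overlapping groups (log2 change -0.17, adjusted p = 0.365; without both libraries -0.22, adjusted p = 0.057).

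Kdm3b had 499, 416 and 504 normalized counts in mWT and 568, 658 and 677 in mKO, with no overlap (log2 change 0.42, SE 0.13, adjusted p = 0.0862). It passed the test without mKO A (0.50, adjusted p = 0.0182) and without both libraries (0.41, SE 0.065, adjusted p = 0.00349). Kdm3a had 1715, 1192 and 1775 in mWT and 1368, 1282 and 1331 in mKO, where the low value is that of mWT B (log2 change -0.21, SE 0.16, adjusted p = 0.412). Without mWT B its log2 change was -0.40 (adjusted p = 0.0253), without mWT A -0.13 (adjusted p = 0.714) and without mWT C -0.11 (adjusted p = 0.748), and without both libraries it was -0.42 (SE 0.054, adjusted p = 0.0015).

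Kdm4b had 539, 395 and 517 normalized counts in mWT and 387, 566 and 520.3 in mKO. The low values are those of mWT B and mKO A, the other 4 libraries lay between 517 and 566, and the groups overlapped (log2 change 0.02, 95% interval -0.38 to 0.42; without both libraries 0.04, 95% interval -0.14 to 0.22). Kdm4c had 2203, 2030.5 and 2319.6 in mWT and 2562, 1777 and 1854 in mKO, so that mKO A was the highest and the other mKO libraries were the lowest (log2 change -0.10, adjusted p = 0.682). Without both libraries the log2 change of Kdm4c was -0.32 (SE 0.054, adjusted p = 0.00456). Kdm4a had 794, 839 and 904 in mWT and 935, 917 and 877 in mKO, with overlap (log2 change 0.11, adjusted p = 0.565; without both libraries 0.08, adjusted p = 0.419).

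Kdm6b varied little within the male groups, with 420, 417 and 417 normalized counts in mWT and 479.6, 465 and 479 in mKO. All mKO libraries were higher, by 13.6% of the mean, and the test was not passed with all libraries (log2 change 0.18, SE 0.11, adjusted p = 0.327) or without both (0.17, adjusted p = 0.0892). The SD of Kdm6b was 1.75 in mWT and 8.11 in mKO. The SE in the test is not that of Kdm6b alone, as limma draws it towards genes of like level. Kdm1a had 1719, 1927 and 1795 in mWT and 2152, 1931 and 2121 in mKO, and the groups were just separated (log2 change 0.19, adjusted p = 0.302; without both libraries 0.20, adjusted p = 0.0392). Kdm1b had 285, 316 and 313 in mWT and 325, 337 and 352 in mKO, without overlap (log2 change 0.15, adjusted p = 0.48; without both libraries 0.20, adjusted p = 0.106).

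Marker sums also differed between the libraries of a male group. The 8 endoderm markers summed to 898 normalized counts in mKO A against 5839 and 5953 in the other mKO libraries, and to 5305 in mWT B against 2917 and 3060 in the other mWT libraries. The 6 EpiLC markers summed to 15498 in mWT B against 8467 and 8690, and the 8 naive markers to 2588 in mWT B against 1446 and 1458. Between the groups, 4 of 6 fibroblast markers were called higher in mKO, with sums of 553 to 820 in mWT and 4163 to 4663 in mKO, and 5 of 8 naive markers, with sums of 1446 to 2588 and 4120 to 7365. Of the EpiLC markers 3 of 6 were called lower (8467 to 15498 in mWT, 6212 to 9140 in mKO), and of the endoderm markers 1 of 8. Of the 5 pluripotency markers 1 was higher and 1 lower (12722 to 16783 in mWT, 12332 to 15432 in mKO). None of the neural (1161 to 1335 and 900.1 to 2120) and mesoderm markers (210 to 235 and 132 to 282) passed. Their part in the male values of the members was not tested.

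**Figure D2:**
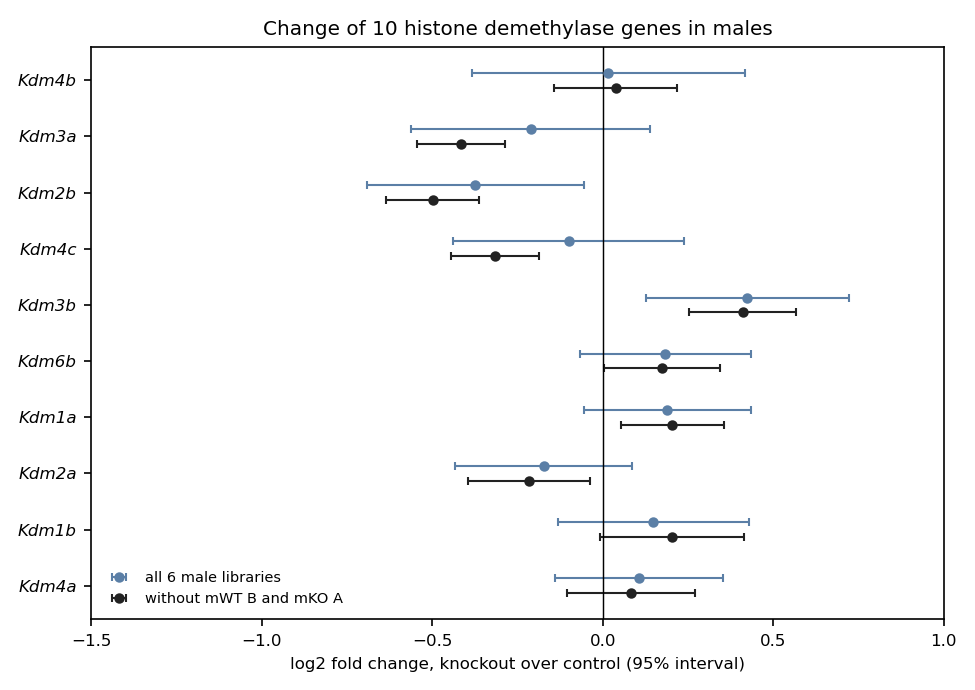
log2 fold change of mKO over mWT (horizontal axis) with its 95% interval for each member, with all 6 male libraries and without mWT B and mKO A. Without these libraries the intervals of Kdm2a, Kdm2b, Kdm3a and Kdm4c lie below 0, and those of Kdm1a, Kdm3b and Kdm6b above 0. Of these members, Kdm2a and Kdm6b did not pass at an adjusted p of 0.05. With all 6 male libraries the interval of Kdm2b lies below 0 and that of Kdm3b above 0, and neither gene passed. The estimates of Kdm4b stay near 0.

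Whether the 2 sexes changed differently was tested as the interaction of sex and genotype over all 12 libraries. The difference passed for 5 members, all with a higher (less negative or more positive) change in males than in females, against 21.2% of all genes and 10.6% in that direction. Among genes averaging 100 or more normalized counts 32.5% passed, 17.1% in that direction. Kdm4b differed by 1.11 on the log2 scale (SE 0.20, adjusted p = 0.00158), with a fall in females and an estimate of 0.02 (95% interval -0.38 to 0.42) in males. Kdm3b differed by 0.76 (SE 0.14, adjusted p = 0.00161), with every fKO library below fWT and every mKO library above mWT. Kdm6b, which had the same opposite order of libraries, differed by 0.50 (SE 0.13, adjusted p = 0.0109). These 3 differences were kept without any one of the 12 libraries.

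Kdm3a differed by 0.59 (SE 0.18, adjusted p = 0.0294), and by 0.38 without mWT B and mKO A (adjusted p = 0.00563). This call was lost without mKO C (0.59, adjusted p = 0.055), fWT A (0.56, adjusted p = 0.0725), fWT B (0.58, adjusted p = 0.0658), fKO A (0.55, adjusted p = 0.0707) or fKO C (0.57, adjusted p = 0.0671). Kdm1a differed by 0.35 (SE 0.11, adjusted p = 0.0346), with estimates of opposite sign in the sexes. This call was lost without mWT A, mWT C, mKO C, fWT A, fWT B, fWT C, fKO B or fKO C, with differences from 0.32 to 0.35 and adjusted p from 0.0585 to 0.0919, and it was kept without both libraries that stand apart (0.37, adjusted p = 0.00356).

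Kdm4c differed by 0.46 (SE 0.17, adjusted p = 0.0664). Its difference passed without mKO B (0.56, adjusted p = 0.0323), with scaling to total reads (0.52, adjusted p = 0.0398) and without mWT B and mKO A (0.24, adjusted p = 0.0279). For Kdm2b, which was lower in the knock-outs of both sexes when the libraries that stand apart were left out, the difference was 0.24 (95% interval -0.08 to 0.56) with all libraries and 0.11 (95% interval -0.02 to 0.25) without them. The differences of Kdm1b (0.03), Kdm2a (-0.17) and Kdm4a (-0.09) did not pass. Without mWT B and mKO A, 6 members passed, against 45.6% of all genes and 57.7% of those averaging 100 or more. The targeted gene Kdm5c differed by 0.50 in the same direction (SE 0.10, adjusted p = 0.00347). Marker lists differed between the sexes in the same test, with 7 of 8 endoderm markers lower (median difference -4.54), 5 of 6 EpiLC markers lower (median -1.43), 4 of 6 fibroblast markers higher (median 2.74), 2 of 5 pluripotency and 1 of 8 naive markers lower, 1 neural marker higher and 1 lower of 4, and 0 of 5 mesoderm markers passing. Their part in the differences of the members was not tested.

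**Figure D3:**
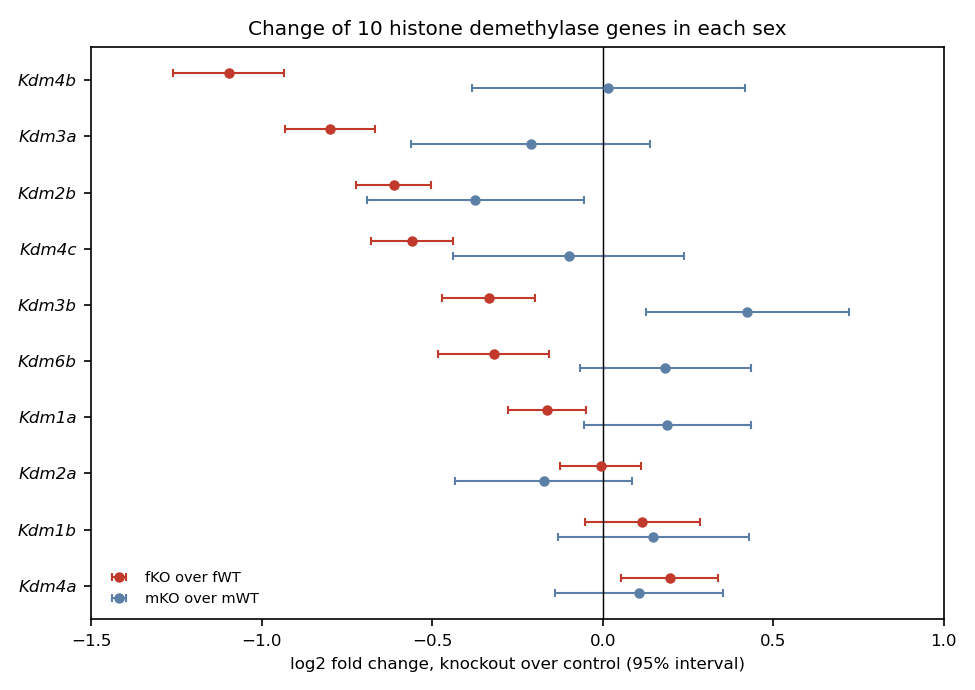
log2 fold change of knock-out over control (horizontal axis) with its 95% interval for each member in females and in males, in order of the female change. Kdm4b at the top fell by 1.10 in females and lies at 0.02 in males, Kdm3b, Kdm6b and Kdm1a lie on opposite sides of 0, and the male intervals are wider.

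Between control EpiLCs of the 2 sexes, 1 of the 10 members differed, against 21.5% of all genes and 31.2% of those averaging 100 or more. Kdm6b was higher in fWT than in mWT (log2 difference 0.29, SE 0.089, adjusted p = 0.0317), with a mean of 512 ± 13.9 (SD, n = 3) against 418 ± 1.75 (SD, n = 3). This call was lost without mWT A (0.30, adjusted p = 0.0756), mWT C (0.29, adjusted p = 0.0757), fWT A (0.27, adjusted p = 0.105), fWT B (0.31, adjusted p = 0.0686) or fWT C (0.29, adjusted p = 0.0893), and with scaling to total reads (0.23, adjusted p = 0.0812). The other 9 differences lay between -0.21 for Kdm2a and 0.18 for Kdm1a. Without mWT B and mKO A, Kdm6b, Kdm1a and Kdm2b were higher and Kdm2a lower in fWT. These 4 members stand against 48.8% of all genes and 59.4% of those averaging 100 or more. Markers differed between the same groups. The 8 endoderm markers were all called lower in fWT, with sums of 513 to 570 normalized counts against 2917 to 5305 in mWT. Of the 6 fibroblast markers 3 were higher in fWT, with sums of 2244 to 2297 against 553 to 820. Lower in fWT were also 3 of 8 naive markers (965 to 998 against 1446 to 2588), 2 of 5 pluripotency markers, with Sox2 at -2.20 on the log2 scale, and 3 of 6 EpiLC markers, of which 1 was higher. Of the mesoderm markers 2 of 5 and of the neural markers 1 of 4 were higher in fWT. The part of these markers in the values of the members was not tested. The fWT libraries serve both this comparison and that of fKO with fWT, so the 2 sets of values share samples.

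Levels of different members were compared per kb of exon, with the exon length of each gene from the mouse annotation of the mm9 build. In fWT the order by normalized reads per kb was Kdm1a at 397, Kdm4c at 377, Kdm3a at 318, Kdm2b at 138, Kdm4a at 135, Kdm2a at 125, Kdm4b at 100.2, Kdm6b at 73.6, Kdm3b at 67.0 and Kdm1b at 66.2. The libraries of neighbours in this order overlapped for Kdm2b and Kdm4a and for Kdm3b and Kdm1b. Kdm1a, Kdm4c and Kdm3a were thus more than 2 times as high per kb as any other member in fWT. This gap depends on the length used. Kdm2b has 11818 bases of annotated exon against 4964 for Kdm3a, and its mean normalized count in fWT was 1626 against 1578. Other lengths were not tested. In fKO, Kdm1a at 354 and Kdm4c at 256 still led, Kdm3a was at 183, Kdm4a at 155, Kdm2a at 124, Kdm2b at 89.9, Kdm1b at 72.0, Kdm6b at 59.1, Kdm3b at 53.1 and Kdm4b at 46.8. There the libraries of Kdm6b and Kdm3b and those of Kdm3b and Kdm4b overlapped. Kdm2b went from the fourth to the sixth place and Kdm4b from the seventh to the last.

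In mWT the 3 highest members were Kdm4c at 375, Kdm1a at 350.2 and Kdm3a at 314 reads per kb, whose libraries overlapped in that order, and the lowest were Kdm1b at 63.1, Kdm3b at 61.3 and Kdm6b at 60.1, which overlapped as well. In mKO, Kdm1a at 399 and Kdm4c at 354 led with overlapping libraries, and Kdm3a followed at 267. Kdm4b at 100.3, Kdm2b at 97.1 and Kdm3b at 82.2 overlapped as neighbours there, as did Kdm1b at 70.0 and Kdm6b at 68.2.

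**Figure D4:**
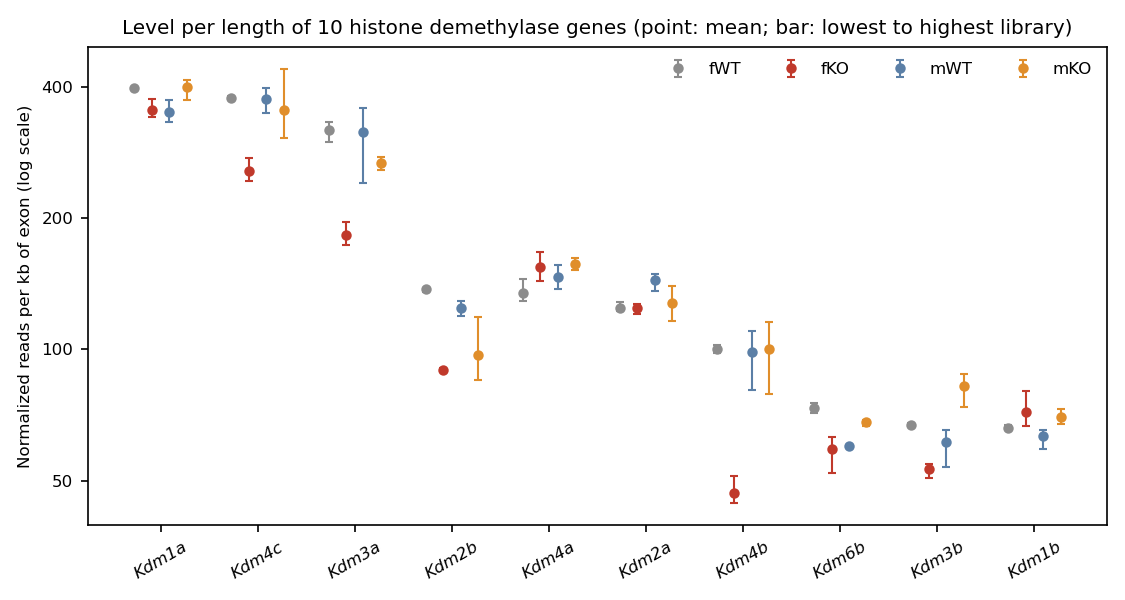
Normalized reads per kb of exon (vertical axis, log scale) of each member in the 4 groups, ordered by the fWT level. Points are means of 3 libraries and bars reach from the lowest to the highest library. Kdm1a, Kdm4c and Kdm3a are the 3 highest in every group, although in fKO Kdm3a at 183 lies near Kdm4a at 155. The fKO value of Kdm4b, 46.8, is the lowest of all.

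Ratios of reads between relatives were taken within each library, which leaves out the size factors. Kdm3a over Kdm3b was 2.84 to 3.21 in fWT and 2.07 to 2.48 in fKO. In males the same ratio was 3.43, 2.87 and 3.52 in mWT and 2.41, 1.95 and 1.96 in mKO. It was the 1 ratio of the 6 that did not overlap between the groups in either sex, and this held with mWT B and mKO A included. Kdm2b over Kdm2a was 1.75, 1.71 and 1.67 in fWT and 1.17, 1.11 and 1.09 in fKO. In males it was 1.26, 1.35 and 1.43 in mWT and 1.31, 1.14 and 1.06 in mKO, with overlap through mKO A.

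Among the KDM4 genes, Kdm4b over Kdm4a had a mean of 0.629 ± 0.0263 (SD, n = 3) in fWT and 0.258 ± 0.0394 (SD, n = 3) in fKO. Kdm4c over Kdm4a was 2.82 ± 0.202 in fWT and 1.67 ± 0.145 in fKO, and Kdm4c over Kdm4b was 4.47 ± 0.146 and 6.55 ± 0.838 (SD, n = 3 each). None of these female ratios overlapped between the groups, whereas all 3 overlapped in males. These 3 ratios are built from the same 3 genes, and for none of the 6 ratios was a share taken over other gene pairs. Of single genes, 54.8% did not overlap between the groups in females and 26.5% in males. Kdm1a over Kdm1b was 6.42 ± 0.0732 in fWT and 5.32 ± 0.73 in fKO (SD, n = 3 each), without overlap. The exact permutation test, two-sided, gave p = 0.10 for each of the 7 ratios without overlap, the smallest value possible, and 0.171 after adjustment over the 12 ratios tested.

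**Figure D5:**
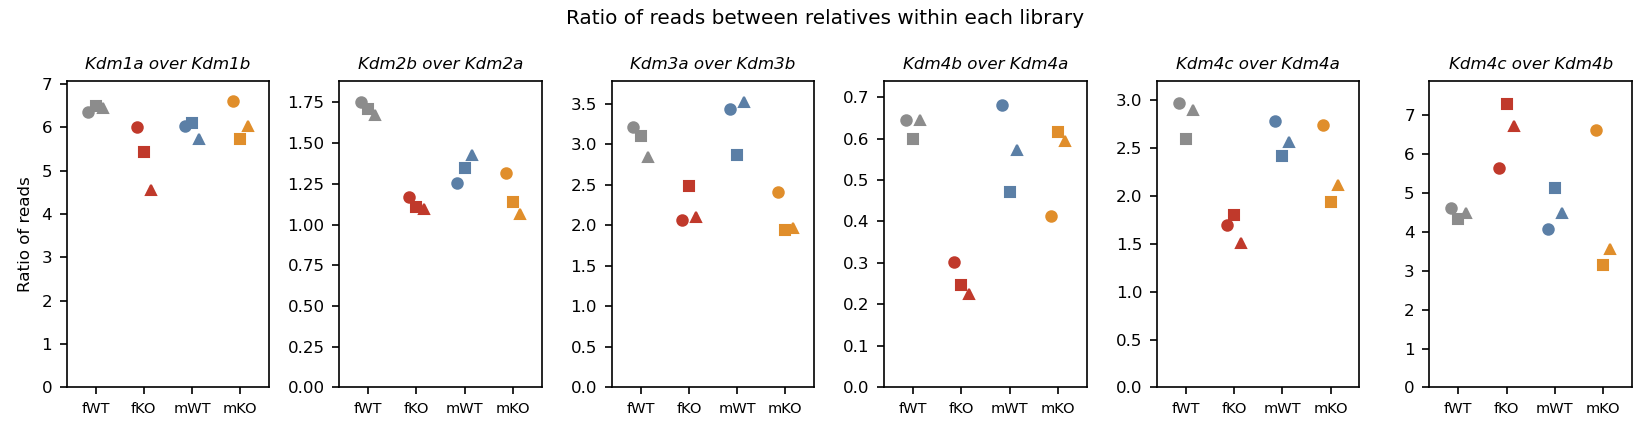
Ratio of reads between related members (vertical axes, from 0) in each library, by group. Circles, squares and triangles are libraries A, B and C. Kdm3a over Kdm3b is lower in both knock-out groups than in their controls, and the ratios with Kdm4b separate fKO from fWT but not mKO from mWT.

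All 10 members lie on autosomes in mm9. Kdm4a, Kdm4c and Kdm1a lie on chromosome 4, with Kdm4c from 73888401 to 74051764 on the + strand, Kdm4a from 117809562 to 117852648 and Kdm1a from 136106455 to 136158638 on the - strand. Kdm4b lies on chromosome 17 from 56465485 to 56542293 (+ strand), Kdm3a on chromosome 6 from 71538968 to 71582899 (- strand) and Kdm2b on chromosome 5 from 123320677 to 123465089 (- strand). The other members lie on chromosomes 11 (Kdm6b), 13 (Kdm1b), 18 (Kdm3b) and 19 (Kdm2a).

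Promoter windows from RefSeq (build GRCm38.p6) were matched by symbol for 6 of the 10 members, with entries named for Kdm1a, Kdm1b, Kdm2b, Kdm3a, Kdm4a and Kdm4c and none for Kdm2a, Kdm3b, Kdm4b and Kdm6b. The 120 bases before the first listed start are printed for the 3 members with the largest falls in fKO that have an entry, and for Kdm4a, the 1 member called higher. Capitals mark 3 motifs looked for on both strands: ACGTG, the core of the hypoxia response element, GGGCGG, the GC box, and CCAAT, the CCAAT box. The stretches are chr5:122988508-122988627 (- strand) for Kdm2b, chr6:71632918-71633037 (- strand) for Kdm3a, chr4:74242377-74242496 (+ strand) for Kdm4c and chr4:118180044-118180163 (- strand) for Kdm4a, each written 5′ to 3′ on the strand of its gene.
Kdm2b: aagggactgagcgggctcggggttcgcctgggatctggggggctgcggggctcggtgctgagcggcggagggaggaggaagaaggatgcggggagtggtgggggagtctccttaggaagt
Kdm3a: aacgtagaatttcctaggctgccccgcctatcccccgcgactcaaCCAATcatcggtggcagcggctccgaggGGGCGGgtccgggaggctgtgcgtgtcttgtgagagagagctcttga
Kdm4c: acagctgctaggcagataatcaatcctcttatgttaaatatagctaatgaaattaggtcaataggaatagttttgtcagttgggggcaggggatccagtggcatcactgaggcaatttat
Kdm4a: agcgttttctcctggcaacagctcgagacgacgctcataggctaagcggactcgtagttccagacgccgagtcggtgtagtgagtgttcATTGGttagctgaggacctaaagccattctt

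The Kdm3a stretch held 1 GC box and 1 CCAAT box and that of Kdm4a 1 CCAAT box, while those of Kdm2b and Kdm4c held none of the 3 motifs. The stretches had a GC content of 68.3% for Kdm2b, 62.5% for Kdm3a, 52.5% for Kdm4a and 40.0% for Kdm4c. Over all 12 windows of members, the same 120 bases held the GC box in 5, the CCAAT box in 4 and the hypoxia core in 1. Over all 32851 windows of the table these shares were 26.5%, 21.3% and 9.41%. A match is a run of letters and was not tested for binding, and several members have more than 1 listed start.

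Further genes of the demethylases' pathways were counted from lists, and each count stands beside the share of all genes called in that test, in females 50.0% (25.4% higher and 24.6% lower, or 68.1% among genes averaging 100 or more) and in males 7.78%. Of 12 further demethylase and related JmjC genes 11 were in the tables, and 2 were higher and 4 lower in fKO, 6 of 11 against 50.0% of all genes. Mina rose, from a mean of 477 to 882 normalized counts (log2 change 0.89, SE 0.068, adjusted p = 4.6e-09; males -0.14, adjusted p = 0.583), as did Kdm8, from 28.2 to 55.8 (0.99, SE 0.22, adjusted p = 0.000941; males 0.11, adjusted p = 0.89). Hr, the hairless gene, fell from 85.8 to 40.2 (-1.08, SE 0.17, adjusted p = 3.0e-05; males 0.25, adjusted p = 0.653). Kdm4d, the testis-enriched relative of the KDM4 members, had 3.58 in fWT and 0.674 in fKO, too few reads for a fold change. In males 0 of the 11 passed. In the KDM5 family, Kdm5c was the 1 of 4 genes called in fKO, and 0 of 4 were called in males.

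Of 16 partners of KDM1A and KDM1B, 6 were higher and 6 lower in fKO, 12 of 16 against 50.0% of all genes and 68.1% of those averaging 100 or more, and 1 was higher in mKO, against 7.78%. Zmym3, a zinc finger protein of the CoREST complex, rose in both sexes, from 237 to 614 normalized counts in females (log2 change 1.37, SE 0.076, adjusted p = 5.8e-11) and from 284 to 687 in males (1.24, SE 0.20, adjusted p = 0.00724). Of the NuRD subunits, Mta3 rose (0.58, SE 0.061, adjusted p = 2.8e-07; males 0.42, adjusted p = 0.0754) and Mta1 fell (-0.87, SE 0.061, adjusted p = 1.5e-09; males -0.17, adjusted p = 0.603). Rcor3, a CoREST scaffold, fell (-0.47, SE 0.15, adjusted p = 0.0111; males -0.30, adjusted p = 0.427).

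Of 9 subunits and partners of the KDM2B complex, 3 were higher and 1 lower in fKO, 4 of 9 against 50.0% of all genes. Bcor, the scaffold of that complex, rose in both sexes (females 0.37, SE 0.062, adjusted p = 5.9e-05; males 0.83, SE 0.20, adjusted p = 0.0377). Rybp rose in females (0.60, SE 0.056, adjusted p = 6.9e-08; males 0.40, adjusted p = 0.0762), and its relative Yaf2 fell (-0.28, SE 0.092, adjusted p = 0.0161; males 0.25, adjusted p = 0.386). In mKO 2 of the 9 were higher, Bcor and Ring1 (0.72, SE 0.19, adjusted p = 0.0466), the latter outside the naming rule.

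The enzymes that write the marks removed by the members were counted in the same way. Of 6 H3K9 methyltransferase genes 2 were higher and 2 lower in fKO, 4 of 6 against 50.0% of all genes and 68.1% of those averaging 100 or more. Setdb2 (0.78, SE 0.096, adjusted p = 2.0e-06) and Setdb1 (0.54, SE 0.068, adjusted p = 2.2e-06) rose, and Ehmt2, which encodes G9a (-0.40, SE 0.058, adjusted p = 1.4e-05), and Suv39h1 (-0.32, SE 0.069, adjusted p = 0.00088) fell. In males the log2 changes of these 4 genes were 0.22, -0.03, 0.31 and 0.11, with adjusted p of 0.446, 0.879, 0.233 and 0.588. Of 5 H3K36 methyltransferase genes 3 were called, again against 50.0% and 68.1%. Nsd1 (0.57, SE 0.052, adjusted p = 5.0e-08) and Setd2 (0.31, SE 0.058, adjusted p = 0.000189) rose and Whsc1 (-0.18, SE 0.056, adjusted p = 0.0109) fell in fKO. In males the 3 log2 changes were 0.35, 0.24 and 0.31, with adjusted p of 0.206, 0.206 and 0.119. Of the 2 H3K27 methyltransferase genes 1 was called, as Ezh2 fell in fKO (-0.37, SE 0.059, adjusted p = 3.6e-05; males -0.02, adjusted p = 0.918). In males, against 7.78% of all genes, 0 of these 13 methyltransferase genes passed. The median log2 change in fKO was -0.11 over the H3K9, -0.08 over the H3K36 and -0.24 over the H3K27 methyltransferase genes, 0.02 over the KDM1 partners and 0.16 over the KDM2B partners.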

How the data were processed

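Total RNA of EpiLCs was depleted of ribosomal RNA, and strand-specific libraries gave single-end sequence of 50 bases a read. According to the study's methods and the submitters' processing notes, the authors aligned reads to mm9 with TopHat2 2.1.0, allowing 1 mismatch, and kept those that mapped uniquely, which can lower values where relatives share sequence. The submitters' processing notes also name DESeq and Cuffdiff among the authors' tools. The counting tool behind these tables, its annotation and its strand setting are not given in the sources used here, so reads of overlapping genes may not be separated.

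The authors deposited 1 table per sex. The authors made its signal columns by correcting read counts with a size factor per library and averaging over libraries, so they are mean normalized counts of 22911 genes, over both genotypes and in each. The fold changes, p-values and adjusted p-values that the authors deposited were not used. The reads behind each group mean were solved: the mean times 3 must equal the sum of 3 whole read numbers, each over a size factor, and the factors follow from genes with few reads. Every mean up to 10000 had exactly 1 solution. The solver was tested on simulated data. Recovered libraries carry no sample names and are called replicates A, B and C. Depth was 5516216 to 11092731 reads per library. Errors from counting take no account of PCR copies. The deposited size factors were 0.988 to 0.999 times median-of-ratios factors over all 12 libraries, so both tables share 1 normalization.

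Limma 3.58.1 (R 4.3.3) was fitted with an intensity trend to log2(normalized count + 1) of all genes with a read, within each sex, or over all 12 libraries for the interaction and for fWT against mWT. Fold changes are on this scale, in which the pseudocount of 1 shrinks the changes of low genes. P-values were adjusted by Benjamini-Hochberg over all genes tested, with a threshold of 0.05. As the deposited values are group means, the main test was fitted to normalized counts. The recovered reads were modelled by limma voom only, as an alternative, and other models for counts were not run. P-values weigh a change against the spread between libraries (ESC lines) within groups, which limma draws towards that of genes of like level. The fits over all 12 libraries use 1 spread per gene for both sexes. The median SD on the log2 scale was 0.114 in female and 0.233 in male libraries. Alternatives were a pseudocount of 0.1, a minimum mean of 10, total-read scaling, median-of-ratios factors of the fit, limma voom on recovered reads, a spread shared by all libraries and fits without each library. The solver ran in Python 3.11.15 with numba 0.67.0 and numpy 2.4.6, tables and exact tests were made with pandas 2.3.3 and scipy 1.17.1, and plots with matplotlib 3.10.9.

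The members and the lists were chosen with earlier results of these data known. All members and Kdm5c are named, and of each pathway list up to 2 genes with the largest rise and 2 with the largest fall that passed in fKO against fWT.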

Additional observations from a re-analysis of the deposited data

Results flagged for a closer look

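6 genes were flagged because their change in knock-out males differed from that in knock-out females by the test of sex and genotype. Of all genes 21.2% passed the same test, and of those averaging 100 or more normalized counts 32.5%. The change in males minus that in females was 1.11 on the log2 scale for Kdm4b, 0.76 for Kdm3b, 0.59 for Kdm3a, 0.50 for Kdm6b (0.504), 0.35 for Kdm1a and 0.50 for the targeted gene Kdm5c (0.502). Of the 12 fits that each left out 1 library, Kdm3a kept its call in 7 and Kdm1a in 4. Groups of 3 libraries were not tested for outlying values.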

How the results depend on the processing

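Of the 8 members called in females, 6 to 8 were called in each of the alternatives run, and the 6 other than Kdm1a and Kdm4a in all of them. With a spread shared by all 12 libraries 6493 genes were called in females, against 9799. In males the call rests on the libraries used: without single libraries 331 to 4684 genes and 0 to 2 members were called, against 1703 and 0, with a shared spread 4766 genes and 2 members, and without mWT B and mKO A 9377 genes and 5 members. For the difference between the sexes, 3554 to 7334 genes and 3 to 6 members were called without single libraries, against 4675 and 5, and 10014 genes without both libraries. For fWT against mWT, these counts were 2894 to 8318 genes and 0 to 2 members, against 4741 and 1, and 10724 genes and 4 members without both. The cause of these moves was not tested.

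Only changes near 0 took the other sign. Without single libraries, Kdm2a in females ranged from -0.022 to 0.016 (log2), Kdm4b in males from -0.12 to 0.18, and the sex difference of Kdm1b from -0.019 to 0.11. In fWT against mWT, Kdm3a ranged from -0.15 to 0.14, Kdm4b from -0.11 to 0.12 and Kdm4c from -0.044 to 0.052. With total-read scaling these 3 were -0.024, -0.0296 and -0.054, and without mWT B and mKO A they were -0.15, -0.11 and -0.044.

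No paired analysis was possible because the deposited columns are group means, and the recovered libraries cannot be tied to the replicate numbers of the labels. Depth limits the members little, since their counting errors are below most of the differences called.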
